A study of Mus musculus with 5 samples.

Results

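Bone morphogenetic proteins (BMPs) are secreted ligands of the TGF-β family, and 10 genes around them were followed in mouse embryonic fibroblasts (MEFs) during conversion to neuron-like cells. The 10 genes were the ligands Bmp2 and Bmp4, the type I receptor Bmpr1a, the secreted antagonist Grem1, the inhibitors Smad6 and Bambi, and the 4 Id genes, Id1, Id2, Id3 and Id4. They were taken by symbol from the 27729 genes of the deposited values, and all 10 were among the 13346 genes kept, those that reached 10 expected counts in at least 1 library. The rule that names them uses no measured value, but it was set with earlier results of these data known.

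The MEFs came from embryos of the ICR strain from which the head and the internal organs had been removed. Day 0 was the culture in serum medium, and the libraries of days 2, 5, 10 and 14 came from the same kind of culture in 5C medium, which holds bFGF, leukemia inhibitory factor, N2 supplement, vitamin C and 2-mercaptoethanol in DMEM/F12 without serum (the labels call it 6C). Each time point had 1 library of total RNA, so no difference between days has a replicate check and no p-value was computed. Time in 5C medium and the loss of serum cannot be told apart against day 0.

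A BMP dimer joins type I and type II receptors at the cell surface, and the type I receptor then phosphorylates Smad1, Smad5 or Smad9, which enter the nucleus with Smad4. Id genes are among the most direct targets of these Smads, and the same Smads induce Smad6, Smad7 and Bambi, which dampen the signal. Id proteins hold a helix-loop-helix but no DNA-binding region, so they pair with bHLH factors and keep them from DNA, a role for which they are known in holding back the differentiation of neurons and other cells.

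Expected counts, the estimated numbers of reads per gene, summed to 3890334 on day 0, the deepest library, and to 2253748 on day 2, the shallowest. Normalized counts are expected counts scaled for library size. A change is the log2 of the normalized count plus 1 over the same value on day 0. Levels given in a row are in the order of the 5 days, and changes given in a row are in the order of the 4 later days. Intervals are exact 95% intervals of the counts (Poisson for a level, Clopper-Pearson for a ratio or share) and cover counting error only. A change is called here where it exceeds 2-fold. When TPM, the level per transcript length, was used in place of normalized counts, the median log2 change of all genes moved by −0.17, 0.56, 0.95 and 0.72. The TPM medians were −0.20, 0.61, 1.09 and 0.78, and changes with TPM are given relative to 0, not to these medians. Fibroblast markers were present throughout, with all 10 listed genes kept and a summed level between 32758 and 63377 normalized counts. They did not move as 1 group: 5, 5, 5 and 5 of the 10 were over 2-fold above day 0 and 1, 2, 3 and 3 as far below. Of 11 neuron markers 6 were kept, and the summed level of the list was 698, 407, 425, 332 and 402 normalized counts. Over 2-fold above day 0 were 1, 4, 4 and 3 of the kept genes, and 1, 2, 2 and 2 were as far below. Tubb3, a tubulin of neurons, was at log2 changes of 0.82, 2.00, 1.88 and 2.81, Map2 at −1.93, −1.58, −1.09 and −2.08, and Rbfox3, which marks mature neurons, was at 0 in every library. The day 2 library stood apart in that Gm42418 held 4.79% of its counts and at most 0.109% elsewhere, and the members kept their direction when library sizes were computed without Gm42418 and Lars2.

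Promoter sequences of members that lay over 2-fold below day 0 on all 4 later days are shown first, since their genes moved in the same direction. They were read from the RefSeq table for GRCm38.p6, which holds a window for 7 of the 10 genes, and only bases outside the exons of GENCODE M21 were printed, apart from the short window at the start of Smad6. The window of Id3 before its start lies wholly in such exons, and the bases of Id2 lie inside the GENCODE gene but outside its exons. Capitals mark GGCGCC, a GC-rich site known to be bound by Smad1 and Smad5, and GTCT or its reverse complement AGAC, the Smad box. The 3 longer sequences lie before the RefSeq transcript start and the Smad6 window spans it. The genomic intervals are chr12:25096254-25096342 on the minus strand for Id2, chr13:48260866-48261115 on the plus strand for Id4, chr14:46390670-46390919 on the minus strand for Bmp4 and chr9:64022045-64022074 on the minus strand for Smad6.
Id2: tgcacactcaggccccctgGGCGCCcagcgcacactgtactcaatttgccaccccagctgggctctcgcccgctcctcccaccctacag
Id4: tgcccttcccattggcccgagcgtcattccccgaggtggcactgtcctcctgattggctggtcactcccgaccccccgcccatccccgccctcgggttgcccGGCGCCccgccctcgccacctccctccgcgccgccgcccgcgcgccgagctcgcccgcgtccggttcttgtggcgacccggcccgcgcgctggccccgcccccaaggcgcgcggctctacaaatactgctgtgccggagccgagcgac
Bmp4: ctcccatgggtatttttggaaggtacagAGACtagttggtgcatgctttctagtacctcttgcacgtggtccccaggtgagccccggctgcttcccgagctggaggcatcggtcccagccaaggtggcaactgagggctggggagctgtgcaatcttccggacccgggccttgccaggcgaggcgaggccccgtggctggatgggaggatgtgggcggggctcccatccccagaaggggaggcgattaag
Smad6: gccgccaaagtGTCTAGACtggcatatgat

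On either strand and over the whole window from 250 bases before to 50 bases after the start, GGCGCC was found in Id2, Id4, Bmpr1a and Grem1 and not in Id3, Bmp4 or Smad6. It occurs in 11.9% of the 32851 promoters of the table. GTCT, which 88.0% of promoters hold, was found in 6 of the 7 windows and not in that of Id4. In Smad6 a GTCT and an AGAC join to the palindrome GTCTAGAC, which runs from −4 to 3 relative to the start (counted as 0) and was found in 70 of all promoters (0.213%). It was searched for after the sequence had been seen. GGCGCC was found in windows of genes that lay below day 0 (Id2, Id4 and Grem1) and of a gene that lay above it (Bmpr1a), and these letter matches are descriptions of the windows, not of binding.

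The ligands moved in opposite directions. Bmp2 (ENSMUSG00000027358, chr2:133552159-133562885, plus strand) had 8, 22, 106, 52 and 26 expected counts. As normalized counts these were 7.92 (3.42 to 15.6), 39.8 (24.9 to 60.3), 92.8 (75.9 to 112), 37.1 (27.7 to 48.7) and 23.2 (15.2 to 34.1). Bmp2 was lowest on day 0 and highest on day 5, and the interval of day 5 overlaps that of no other day. Against day 0 Bmp2 was 4.58-fold, 10.5-fold, 4.28-fold and 2.72-fold higher. On day 14 the counts bound its log2 change of 1.44 only to between 0.37 and 2.91, because day 0 had 8 counts.

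Bmp4 (ENSMUSG00000021835, chr14:46383520-46390669, minus strand), a ligand close in sequence to Bmp2, had 211, 65.1, 59.5, 45.7 and 61.7 normalized counts. The level of day 0 stood apart from all later days, whose intervals overlap each other. Its log2 changes were −1.68 (−2.25 to −1.18), −1.81, −2.18 and −1.76. The balance of both ligands within a library needs no scaling between days, but it can shift with transcript length. On day 10 the decile of genes of like length had a median log2 change of 0.62 for Bmp2 and −0.15 for Bmp4. Of the counts of Bmp2 and Bmp4 together, Bmp2 held 3.62% (1.58 to 7.01), 37.9% (25.5 to 51.6), 60.9% (53.2 to 68.2), 44.8% (35.6 to 54.3) and 27.4% (18.7 to 37.5). Bmp2 therefore went from a small part of the pair to the larger part on day 5. Per transcript length Bmp4 was at 40.7, 10.2, 19.5, 20.6 and 21.9 TPM on the 5 days, and Bmp2 at 0.78, 3.28, 15.0, 8.26 and 4.22 TPM. The TPM of Bmp4 was thus above that of Bmp2 on every day, and the values of day 5 were the closest. A gene on the opposite strand, Gm15217, shares 89 exonic bases with Bmp4 and had 3.2 expected counts on day 0 and 0 on the other days.

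Bmpr1a (ENSMUSG00000021796, chr14:34410734-34503341, minus strand), the type I receptor for both ligands, was the receptor among the members and had 138, 110, 235, 455 and 309 normalized counts. Its levels of days 0 and 2 overlap in their intervals, and days 10 and 14 stood above them. The log2 changes were −0.32 (−0.78 to 0.13), 0.77 (0.47 to 1.08), 1.72 (1.46 to 2.00) and 1.16 (0.88 to 1.46), so that the last pair of days passed 2-fold. Bmpr1a has a long transcript, and the decile of genes with the longest transcripts had a median log2 change of 1.04 on day 10. Relative to that decile its log2 change was 0.67 on day 10 and 0.60 on day 14, in both cases under 2-fold.

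Grem1 (ENSMUSG00000074934, chr2:113746164-113758646, minus strand) encodes Gremlin 1, a secreted protein that binds Bmp2 and Bmp4 and keeps them from their receptors. It had 451, 256, 318, 111 and 67.9 normalized counts. The levels of the first 3 days all lay above those of days 10 and 14. Its log2 changes were −0.81 (−1.09 to −0.54), −0.50 (−0.71 to −0.30), which turned to 0.20 with TPM, −2.01 (−2.29 to −1.75) and −2.71 (−3.10 to −2.38). Among the members, Grem1 (−1.50, −1.79 to −1.24), Bmp2 (−1.30) and Id1 (−1.29) were over 2-fold lower on day 10 than on day 5, against 9.50% of all genes. With TPM the steps of Bmp2 (15.0 to 8.26) and Id1 (207 to 116) were under 2-fold. Relative to genes of like length the step of Id1 (−0.54 to −1.14) was also under 2-fold. Of the counts of Grem1 and Bmp4 together, Grem1 held 68.2% (64.5 to 71.7), 79.8% (73.1 to 85.4), 84.2% (80.4 to 87.5), 70.9% (64.4 to 76.8) and 52.4% (44.0 to 60.8). The antagonist thus lost count share to the ligand after day 5, and the shares of days 0 and 10 overlap. Both genes lie in different length deciles. Relative to genes of like length, their log2 changes on day 10 were −2.63 for Grem1 and −2.03 for Bmp4.

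Smad6 (ENSMUSG00000036867, chr9:63953076-64022059, minus strand), an inhibitory Smad that dampens the signal, had 184, 19.9, 25.4, 23.6 and 16.1 normalized counts. It was lower from day 2 on, the day of the library with the high share of Gm42418, and the 4 later intervals overlap. The log2 changes were −3.15 (−4.24 to −2.34), −2.81 (−3.48 to −2.29), −2.91 (−3.55 to −2.43) and −3.44 (−4.30 to −2.82), the last of which is 10.8-fold lower.

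Bambi (ENSMUSG00000024232, chr18:3507923-3516404, plus strand) encodes a membrane protein like a type I receptor without a kinase, which takes part in receptor complexes without passing on the signal. It had 75.2, 32.6, 35.9, 37.1 and 88.6 normalized counts. The 3 middle days were lower than both ends, and the intervals of days 0 and 14 overlap. The log2 changes of Bambi on days 2 and 5 were −1.18 (−2.04 to −0.45) and −1.05 (−1.65 to −0.50). On day 10 its change was −0.999 (−1.56 to −0.49), which did not exceed 2-fold and turned to 0.13 with TPM, and on day 14 it was 0.23 (−0.21 to 0.69), which turned to −0.23 relative to genes of like length. From day 10 to day 14 Bambi gained 1.23 (0.75 to 1.77) on the log2 scale and was the only member over 2-fold higher on that step, against 4.73% of all genes. On the same step 0 members were over 2-fold lower, against 8.33%. With TPM, at 5.83 and 11.35, the gain of Bambi on that step was under 2-fold. Of the counts of Bambi and Smad6 together, Bambi held 29.0% (23.6 to 34.9), 62.1% (42.3 to 79.3), 58.6% (46.2 to 70.2), 61.2% and 84.6% (76.8 to 90.6). These inhibitors, both known BMP targets, were both lower on day 2 and apart by day 14. They lie in different length deciles, and relative to genes of like length Bambi was at −0.23 and Smad6 at −3.63 on day 14.

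**Figure D1:**
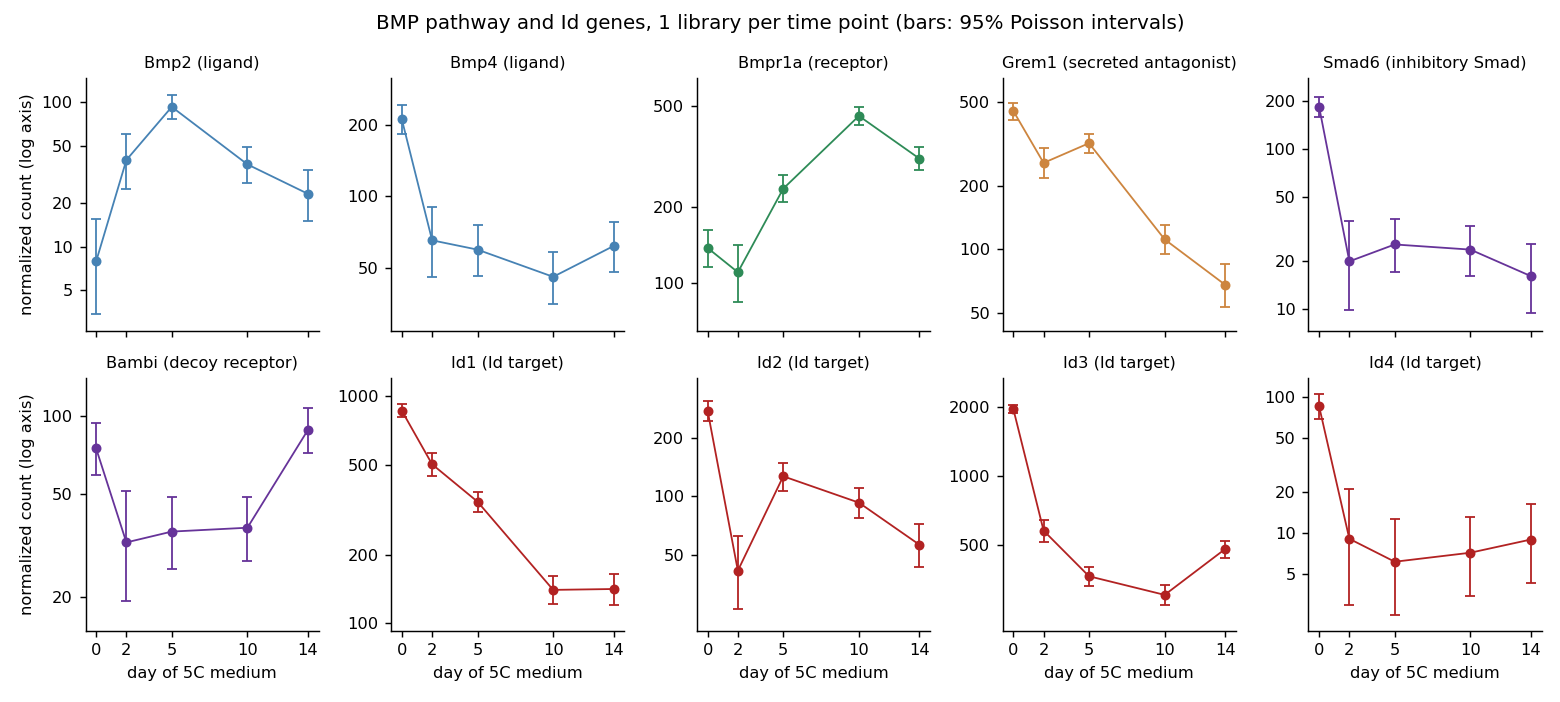
Normalized counts (log axis, a separate scale in each panel) of the 10 genes against the day of 5C medium, 1 library per point, with exact 95% Poisson intervals as bars. Bmp2 peaked on day 5 at 92.8 and Bmpr1a on day 10 at 455, Smad6 and Id4 lost most of their level by day 2, and Bambi returned to 88.6 on day 14.

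The Id genes were below day 0 on all 4 later days, with separate time courses. Id1 (ENSMUSG00000042745, chr2:152736251-152737410, plus strand) had 864, 502, 343, 140 and 141 normalized counts. By normalized count it was lower at each step up to day 10, and the step from day 10 to day 14 was 0.01 (−0.30 to 0.32) on the log2 scale. By TPM, with 324, 152, 207, 116 and 96.2, day 5 lay above day 2 and day 14 below day 10, and relative to genes of like length day 5 (−0.54) also lay above day 2 and day 14 (−1.56) below day 10 (−1.14). Its log2 changes were −0.78 (−0.99 to −0.59), −1.33 (−1.51 to −1.16), −2.62 (−2.86 to −2.40) and −2.60 (−2.87 to −2.37).

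Id3 (ENSMUSG00000007872, chr4:136143497-136145755, plus strand), the Id gene with the most counts, had 1958, 579, 367, 304 and 482 normalized counts. By normalized count day 10 was the lowest and day 14 lay above days 5 and 10. By TPM (556, 147, 178, 211 and 263) day 2 was the lowest, and relative to genes of like length (−1.79, −2.05, −1.82 and −1.47) day 5 was. The log2 changes were −1.76 (−1.93 to −1.59), −2.41 (−2.57 to −2.26), −2.68 (−2.84 to −2.53) and −2.02 (−2.16 to −1.88), and the step from day 10 to day 14 was 0.66 (0.48 to 0.85).

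Id2 (ENSMUSG00000020644, chr12:25093799-25097140, minus strand) had 277, 41.4, 127, 92.8 and 56.3 normalized counts. It was lowest on day 2, higher on day 5 and lower again on day 14, so its course had a trough and a second decline. Its log2 changes were −2.71 (−3.42 to −2.12), −1.12 (−1.43 to −0.83), −1.57 (−1.89 to −1.27) and −2.28 (−2.72 to −1.90). Among the members, Id2 (1.59, 0.97 to 2.31), Bmp2 (1.20) and Bmpr1a (1.09) were over 2-fold higher on day 5 than on day 2, against 19.0% of all genes. Relative to genes of like length the steps of Bmp2 (2.29 to 3.08) and Bmpr1a (−0.16 to 0.45) were under 2-fold.

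Id4 (ENSMUSG00000021379, chr13:48261228-48266026, plus strand) had 87.0, 5, 7, 10 and 10 expected counts, or 86.1, 9.05, 6.13, 7.14 and 8.94 normalized counts. It was high on day 0 alone, and the later levels could not be ordered at this depth. Its log2 change of −3.61 on day 5 has an interval from −5.17 to −2.71. A330033J07Rik, an antisense gene that shares 63 exonic bases with Id4, had at most 1.01 expected counts in any library.

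Per transcript length, the 4 Id genes summed to 976, 310, 445, 389 and 391 TPM. The summed TPM of each later day was below 50% of that of day 0. Id3 made up 57.0%, 47.3%, 40.1%, 54.4% and 67.1% of the sum. Id1 made up 33.2%, 49.1%, 46.4%, 29.8% and 24.6% of it, and Id4 never more than 1.88%. The order by TPM was Id3, Id1, Id2, Id4 on days 0, 10 and 14 and Id1, Id3, Id2, Id4 on days 2 and 5, although Id1 and Id3 were close on day 2, at 152 and 147 TPM. Of the counts of Id1 and Id3 together, Id1 held 30.6% (28.9 to 32.3), 46.4% (42.3 to 50.5), 48.3% (44.8 to 51.8), 31.5% (27.9 to 35.3) and 22.7% (19.6 to 26.0). The count balance moved toward Id1 up to day 5 and was below the starting share on day 14. Both genes lie in different length deciles, and relative to genes of like length their changes on day 14 were close, at −1.56 for Id1 and −1.47 for Id3.

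**Figure D2:**
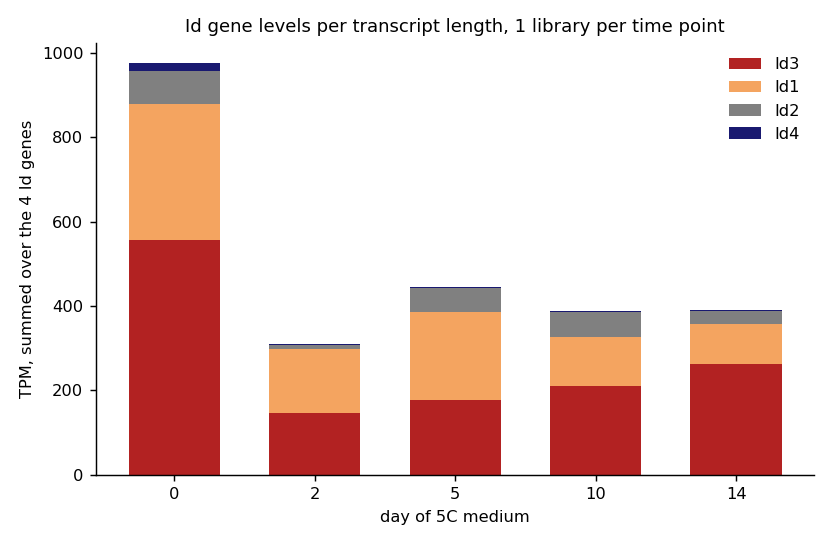
TPM of Id3, Id1, Id2 and Id4 stacked for each day of 5C medium, 1 library per bar, from 0. The sum was 976 TPM on day 0 and between 310 and 445 TPM on the later days, with Id3 at its largest share, 67.1%, on day 14.

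**Figure D3:**
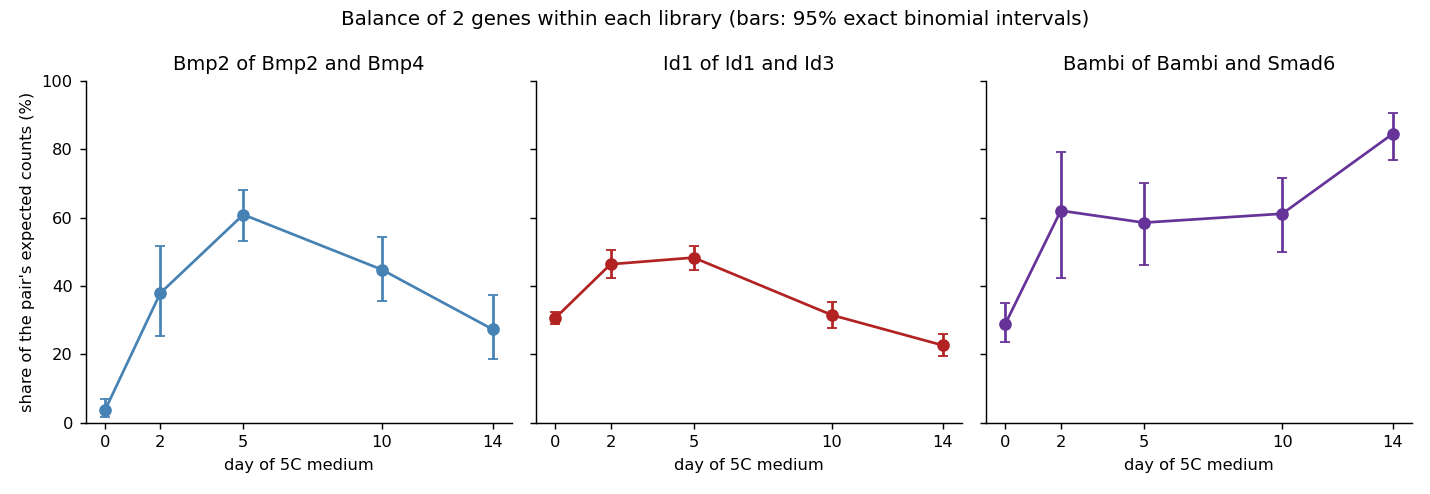
Share of 1 gene in the expected counts of a pair (per cent) against the day of 5C medium, with exact 95% binomial intervals as bars and 1 library per point. Bmp2 rose from 3.62% to 60.9% of the ligand pair on day 5, Id1 went from 30.6% to 48.3% and then 22.7%, and Bambi reached 84.6% of the inhibitor pair on day 14.

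Short transcripts as a group were lower on days 5, 10 and 14 but not on day 2, when the shortest decile had a median log2 change of 0.22. Id1 belongs to the decile of genes with the shortest transcripts, whose median log2 change on day 10 was −1.47, and Id2 and Id3 belong to the next decile, whose median was −0.86. Relative to genes of like length, the log2 changes on day 10 were −1.14 for Id1, −0.71 for Id2, −1.82 for Id3 and −2.99 for Id4. On that scale Id1 on day 5 (−0.54) and Id2 on days 5 and 10 (−0.75 and −0.71) no longer exceeded 2-fold. The direction of all 4 Id genes was downward on all 4 later days by normalized count, by TPM and relative to genes of like length.

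Counted together, 6 of the 10 members were over 2-fold below day 0 on day 2 (Id2, Id3, Id4, Bmp4, Smad6 and Bambi), against 13.1% of all genes, and 1 was above (Bmp2), against 15.2%. On day 5, 7 members were below, with Id1 added, against 13.6% of genes, and 1 was above, against 20.2%. On days 10 and 14 the same 7 members were below (the 4 Id genes, Bmp4, Smad6 and Grem1), against 22.3% and 19.9% of genes, and Bmp2 and Bmpr1a were above, against 28.7% and 24.5%. The median log2 change of the 10 members was −1.43, −1.22, −2.09 and −2.15 on the 4 later days, where the median of all genes was −0.03, 0.05, 0.14 and 0.07. With TPM 8, 4, 4 and 6 members were below by over 2-fold. The 4 comparisons share the library of day 0.

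**Figure D4:**
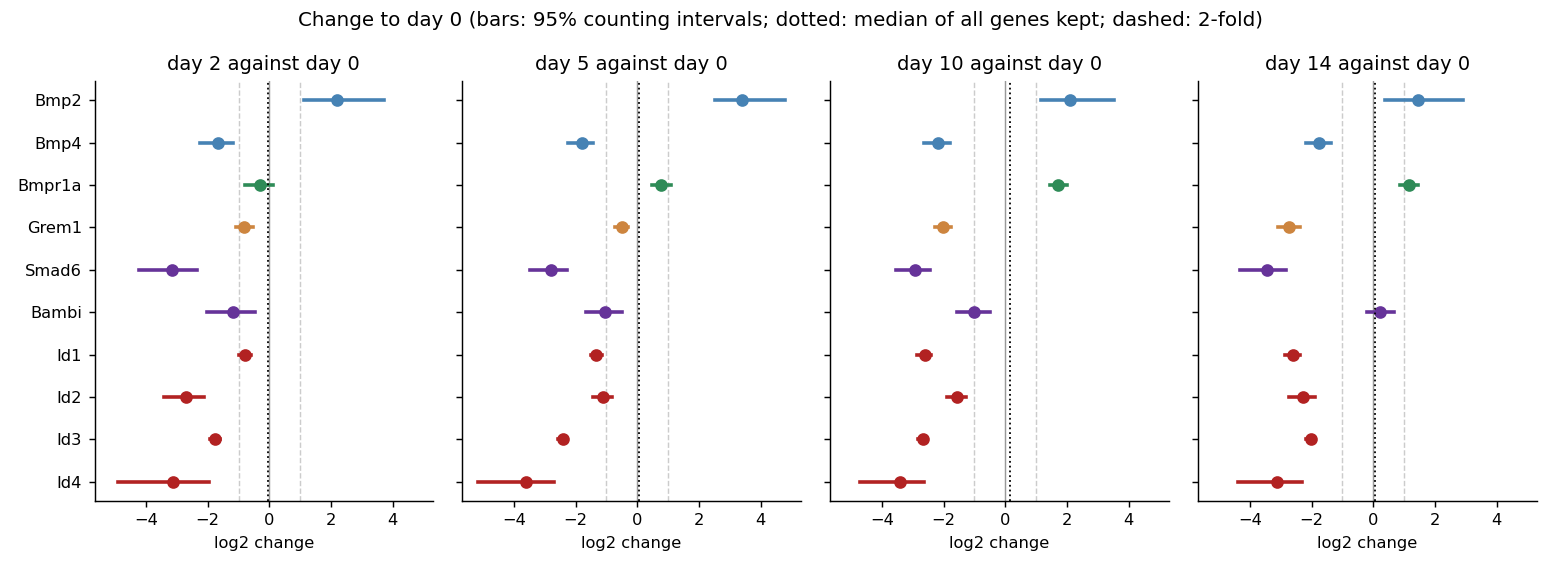
Log2 change of each gene to day 0 (points) with exact 95% counting intervals (bars), for days 2, 5, 10 and 14, with the median of all genes as a dotted line and the 2-fold limits as dashed lines. Smad6, Bmp4, Id2, Id3 and Id4 lay left of −1 on all 4 days, Bmp2 lay right of 1 on all 4 days, and Bambi returned to 0.23 on day 14.

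Other genes of the pathway were counted from lists of known ligands, receptors, Smads, antagonists, inhibitors and targets. Changes of genes outside the members are not given relative to genes of like length. Of 15 BMP ligands 7 were kept, members included. Over 2-fold above day 0 were 3, 4, 3 and 3 of them, and 1, 1, 2 and 1 were as far below. The shares of all genes were 15.2%, 20.2%, 28.7% and 24.5% above and 13.1%, 13.6%, 22.3% and 19.9% below. Some ligand calls rest on few counts, such as 6 expected counts of Bmp7 on day 2 against 4 on day 0. No ligand outside the members reached 100 expected counts in a library.

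Of 9 receptors and co-receptors kept, 2, 2, 6 and 4 were over 2-fold above day 0 and 3, 1, 1 and 2 below it, where 15.2%, 20.2%, 28.7% and 24.5% of all genes were above. With TPM 1, 5, 7 and 6 of the 9 were above. The decile of genes with the longest transcripts had median log2 changes of 1.04 on day 10 and 0.56 on day 14. The part of transcript length in the receptor counts was not tested. Rgma, a BMP co-receptor, had 61.4, 279, 343, 338 and 382 normalized counts, which gave a log2 change of 2.16 (1.75 to 2.63) on day 2. Its relative Rgmb was at 2.24 on day 5 and 2.53 on day 10. Acvrl1, a type I receptor best known from blood vessels, was at 1.13 (0.75 to 1.53), 0.98, 1.61 and 1.21.

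Among the 4 signalling Smads, 1 was over 2-fold below day 0 on each later day, against 13.1%, 13.6%, 22.3% and 19.9% of all genes. Smad5 had 169, 213, 284, 413 and 358 normalized counts, and its log2 change was 1.28 (1.04 to 1.54) on day 10. The last 2 changes of Smad1 were 0.84 (0.40 to 1.33) and 0.26 (−0.26 to 0.79). Smad4, the partner common to BMP and TGF-β signalling, was between −0.46 and 0.38 on the 4 later days. The Smad that was lower was Smad9, named after its values were seen, which went from 31.0 expected counts on day 0 to between 1.03 and 10.0.

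Antagonists were found in both directions. Of 15 kept, 6, 6, 7 and 7 were over 2-fold below day 0 and 2, 2, 5 and 4 above it, Grem1 included. With TPM 8, 6, 2 and 5 were below and 1, 3, 6 and 6 above. On day 10, 22.3% of all genes were below and 28.7% above by normalized count. Crim1, a membrane protein that tethers BMPs, had 466, 130, 123, 120 and 65.3 normalized counts. Fst, which encodes follistatin, was at log2 changes of −1.69, −1.79, −1.08, which turned to 0.09 with TPM, and −1.90.

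Among the 5 inhibitors inside the cell or its membrane, 3, 3, 2 and 2 were over 2-fold below day 0 on the 4 later days. The shares of all genes as far below were 13.1%, 13.6%, 22.3% and 19.9%. Smad7, the second inhibitory Smad, had 326, 83.2, 63.0, 40.0 and 26.8 normalized counts and was at a log2 change of −3.55 (−4.19 to −3.06) on day 14. Smad7 also serves TGF-β signalling as a target and inhibitor. Smurf1, a ubiquitin ligase that marks BMP Smads and receptors for degradation, was at log2 changes of −0.87 (−1.24 to −0.53), −0.12, 0.65 and 1.12 (0.93 to 1.33), so that it went the other way by day 14. Smurf2 was at −0.66 on day 2 and between −0.29 and 0.16 on the other days.

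Among the pathway lists, known BMP targets had the largest share of genes below day 0 on each of the 4 later days. Of 15 kept, which include the 4 Id genes, Smad6 and Bambi, 13, 13, 13 and 12 were over 2-fold below day 0, and 0, 0, 1 and 1 were above. The shares of all genes below were 13.1%, 13.6%, 22.3% and 19.9%. The median log2 change of the targets was −2.26 on day 2, or −1.96 with Hey1, which had 0 counts on that day and was at least 2.01-fold lower, at the bound that 3 counts set. After day 2 it was −2.35, −1.96 and −2.28. With TPM 14, 9, 7 and 10 of the 15 were below. Of the 9 targets that are no members, 8, 7, 8 and 7 were below on the 4 later days, and 8, 6, 3 and 5 with TPM. Some of these calls rest on few counts. Hey1 had 11 expected counts on day 0, and 6 and 4 on days 10 and 14. Its log2 intervals on those days, −3.06 to 0.22 and −3.71 to 0.15, include 0. For comparison, of the 35 pathway genes that are no targets 9, 7, 9 and 9 were below and 7, 8, 15 and 13 above, and with TPM 11, 7, 2 and 5 were below. The difference between the lists was not tested.

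Atoh8, a bHLH factor and target of BMP signals, had 332, 54.3, 63.9, 94.3 and 156 normalized counts, lowest on day 2 and climbing after it. Its log2 changes on days 10 and 14 were −1.80 and −1.09. With TPM they were −0.63 and −0.21 and did not exceed 2-fold. Runx2, a bone factor, was the exception among the targets, with 93.9, 78.5, 62.1, 243 and 723 normalized counts and a log2 change of 2.93 (2.64 to 3.27) on day 14. The summed level of the 8 bone and cartilage markers, of which Runx2 is one, was 817, 363, 187, 316 and 800 normalized counts, with 2 of 5 kept genes above and 2 below by over 2-fold on day 14. Different genes made up the 2 ends: Col2a1 held 600 of the sum on day 0 and 2.68 on day 14, when Runx2 held 723.

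**Figure D5:**
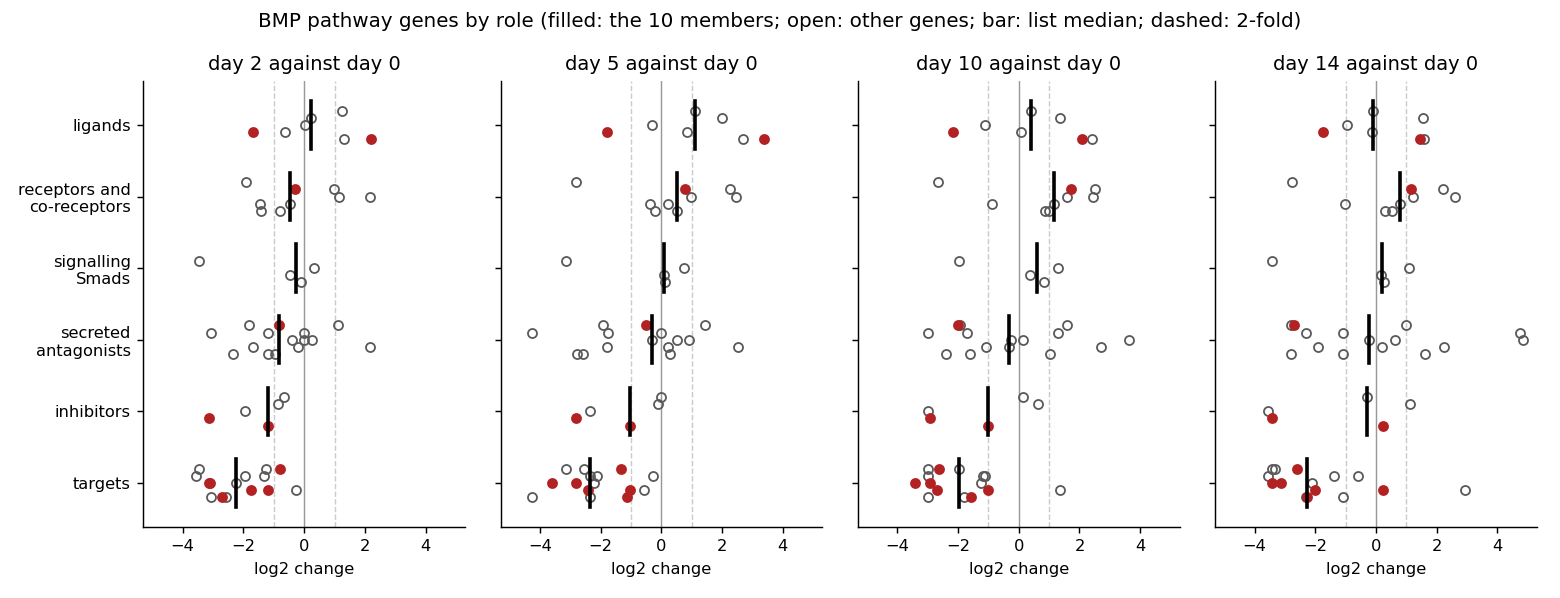
Log2 change to day 0 of the kept pathway genes, by role (rows), for the 4 later days (panels), with members as filled and other genes as open circles, list medians as bars and 2-fold as dashed lines; genes in more than 1 list appear in each. The targets lie mostly left of −1 on all 4 days (13, 13, 13 and 12 of 15), while most receptors lie right of 0 on day 10.

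The bHLH factors that Id proteins bind or oppose did not follow 1 direction. Of 13 listed 7 were kept, of which 2, 2, 3 and 3 were over 2-fold above day 0 and 0, 1, 1 and 1 below. The shares of all genes were 15.2%, 20.2%, 28.7% and 24.5% above and 13.1%, 13.6%, 22.3% and 19.9% below. Tcf4, an E protein and thus a direct partner of Id proteins, had 176, 476, 392, 751 and 678 normalized counts, over 2-fold above day 0 on every later day. Hes1, a repressor downstream of Notch, had 424, 385, 161, 99.3 and 200 normalized counts, and its change on day 14 (−1.08) turned to 0.08 with TPM. Olig1, a factor of the oligodendrocyte lineage, had 0, 5, 2, 31 and 234 expected counts and was at least 70.5-fold higher on day 14 than 3 counts on day 0 would be.

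Markers of other cell types also changed over the 5 libraries, some upward and some downward. The 5 smooth muscle markers summed to 49343, 7389, 1674, 613 and 368 normalized counts. Over 2-fold below day 0 were 4, 5, 5 and 5 of 5. Their sum fell most in counts from day 0 to day 2. The median log2 change of the list was −1.57, −4.35, −4.93 and −6.48, and it fell most from day 2 to day 5. Of 7 endothelial markers 3 were kept, the sum was 274, 71.6, 29.8, 21.4 and 10.7 normalized counts, with Kdr at 235 on day 0 and at most 6.43 later and Emcn at 50.7 on day 2, and Cldn5 was at 0 in every library. The 10 macrophage markers summed to 212, 1878, 3734, 2258 and 1701 normalized counts, and none was at 0 throughout. Over 2-fold above day 0 were 10, 10, 8 and 8 of 10. Their sum was highest on day 5, when Lyz2 alone held 2738 of it. The 10 Schwann cell and neural crest markers summed to 138, 217, 1262, 7941 and 11115 normalized counts, with 4, 8, 9 and 9 of 10 above and none at 0 throughout. The 6 astrocyte markers, of which S100b is shared with that list, summed to 32.7, 300, 282, 477 and 467 normalized counts. The part of these cell types in the results was not tested. In RNA of whole cultures, fewer cells of a type and less RNA per cell cannot be told apart.

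Genes with time courses most like those of Id1 and Bmp4 were found by the Euclidean distance of the 4 log2 changes among the 8256 genes that reached 100 expected counts in a library, as a description over 5 libraries. For Id1 these were Wdr12 (distance 0.29), Glrx3 (0.31) and Ncs1 (0.34). Wdr12, whose protein takes part in ribosome assembly, was at −0.70, −1.53, −2.48 and −2.48 on the 4 later days. For Bmp4 they included Trmt61a (0.29) and Tsc22d2 (0.42). Trmt61a, whose protein takes part in the methylation of tRNA, had 139, 27, 46, 36 and 45 expected counts and was at −1.47, −1.75, −2.38 and −1.75 on the log2 scale.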

How the data were processed

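RNA of MEFs was measured in 1 library per time point, made with the TruSeq RNA kit (strand not stated). The deposited values are expected counts per gene (RSEM's estimated reads, unscaled), and the authors gave beside them TPM values (per length, scaled to a common total) and FPKM values, which the authors deposited as well and which were not used. The submitters' processing notes name Bowtie, RSEM and mm10. Versions, annotation and filters are not given in the sources used here, and reads shared between genes were divided by RSEM. Identifiers were matched to GENCODE M21 (GRCm38) for 27247 of 27729 genes, and the rest held 0.359% of counts.

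TMM factors were computed with edgeR 4.0.16 (R 4.3.3) on rounded expected counts, and the geometric mean of the 5 effective sizes set the common scale. Changes used a pseudocount of 1 and a threshold of 2-fold. A gene was kept if any library had at least 10 expected counts. With 1 library per time point no test was made. The other tools were pandas 2.3.3, scipy 1.17.1, numpy 2.4.6 and matplotlib 3.10.9 under Python 3.11.15, and the computations were tested on simulated data.

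Beside the 10 members, the genes named are, from each pathway list, the 3 non-members with the largest absolute change among genes that reached 100 expected counts in a library, and the 3 genes most like Id1 and Bmp4. Of these, 2 genes are not reported here. Smad9, Hey1, Kdr, Bmp7, Lyz2 and Col2a1 were named after their values were seen. The members and lists were chosen with earlier results of these data known. A listed co-receptor, Hjv, was not matched by symbol. Alternatives were DESeq2's size factors (1.42.0), total counts, TPM, a pseudocount of 5, other filters, a 4-fold threshold, library sizes without Gm42418 and Lars2, and centring on the tenth of genes of like transcript length.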

Additional observations from a re-analysis of the deposited data

How the results depend on the processing

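No member turned direction with DESeq2's size factors, total counts, a pseudocount of 5 or library sizes without Gm42418 and Lars2. With TPM the changes of Bambi on day 10 and of Grem1 on day 5 turned, and relative to genes of like length that of Bambi on day 14 did. Less the median TPM change of all genes, Bambi on day 10 was at −0.96 and Grem1 on day 5 at −0.41. Neither turned on that scale. Of the 40 changes of members, TPM moved 28 beyond their counting intervals, genes of like length 18 and total counts 15. The numbers of members above and below day 0 moved with the filter, the threshold and the scaling. On day 2 (1 above, 6 below) the 4-fold threshold gave 3 below, and a filter of 10 or more counts in every library 0 above. On day 5 (1 above, 7 below) total counts gave 2 above and 4 below, TPM 2 above and 4 below, 4-fold 3 below and the stricter filter 0 above. On day 10 (2 above, 7 below) TPM gave 4 below, and genes of like length, the stricter filter and 4-fold each gave 1 above. On day 14 (2 above, 7 below) genes of like length and the stricter filter gave 1 above and 4-fold 0. The stricter filter removes Bmp2 and Id4 by construction, and the cause of the other differences was not tested. No paired analysis was possible because the labels carry no replicate numbers and each day has 1 library, so no library could be left out either. Depth limits Bmp2 on day 0 (8 counts) and Id4 after it (5 to 10 counts).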
